A study of Mus musculus with 88 samples.

Results

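Collagen chain genes encode the alpha chains from which collagens are built, the most abundant proteins of the extracellular matrix. They were taken here as all genes that the platform annotation names Col, a number, the letter a and a number, each read from a probe with that symbol alone. The arrays held 41 such genes among 18069 genes, 12 of them with several probes, where the brightest on average over the 88 arrays (in log2) was kept. By class, 11 were fibrillar, 8 belonged to basement membranes, 7 were FACIT collagens and 15 were of other kinds. Genes with a mean below a log2 intensity of -1.30 were not tested, which left 36 members of 13465 genes. Col11a2, Col4a3, Col4a6, Col10a1 and Col25a1 were too dim, and no values are given for them.

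Collagen chains wind into triple helices inside the cell, are secreted, trimmed, and then assembled and crosslinked outside it. Fibrillar collagens form the load-bearing fibres, basement membrane collagens form sheets and their linked proteins under epithelia and around vessels and muscle, and FACIT collagens sit on the surface of fibrils. The remaining kinds include the beaded filaments of type VI, the anchoring fibrils of type VII, the network of type VIII and collagens that span the cell membrane. In solid tumours most fibrillar collagen is made by fibroblasts, while tumour cells and vessel cells contribute basement membrane chains, and irradiated tissues are known to lay down collagen weeks to months later.

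RNA came from 4 mouse tumours grown as transplants in a hind leg of C3H/HeNrs mice, whose age the labels do not give. Per the labels, NR-S1 and SCCVII are squamous cell carcinomas of spontaneous origin and NFSa is a spontaneous fibrosarcoma, all from C3H/He mice, and #8520 is a fibrosarcoma induced by radiation in a C3H mouse. Each tumour, a single transplantable line, was left untreated or irradiated. Carbon ions were given at 30 Gy (290 MeV, at the middle of a 6 cm spread-out Bragg peak). Gamma rays, the reference beam, were given at 30 or 50 Gy. Irradiated tumours were collected 6 h, 1 day or 3 days later, while all 16 untreated arrays are labelled 0 h. With no untreated tumours from the later times, time and irradiation cannot be told apart in a comparison with untreated tumours. The carbon-ion arm and the gamma arm each had their own untreated tumours, so that 88 one-colour arrays formed 44 groups of 2. A response is the log2 difference between an irradiated group and the untreated tumours of that line in the same arm. Mean responses are over the 4 tumours (8 arrays against 8), responses of a single tumour are 2 arrays against 2, and every error given with a response is the standard error of the fit. A gene counted as higher or lower where its p from limma, adjusted over all genes tested, was under 0.05.

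A few upstream regions are shown first, because the genes behind them behaved differently: Col1a2 and Col3a1 carry the main fibrillar collagens, Col24a1 was higher at day 3 and Col7a1 lower. Each is the stretch of 150 bases just before the RefSeq transcript start on GRCm38.p6, all on the plus strand, with capitals marking a matched motif. They lie at chr6:4505468-4505617 for Col1a2, chr1:45311388-45311537 for Col3a1, chr3:145292322-145292471 for Col24a1 and chr9:108953436-108953585 for Col7a1.
Col1a2: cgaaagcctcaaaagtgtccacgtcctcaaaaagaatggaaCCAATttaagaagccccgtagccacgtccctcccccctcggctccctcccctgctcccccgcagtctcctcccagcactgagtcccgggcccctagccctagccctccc
Col3a1: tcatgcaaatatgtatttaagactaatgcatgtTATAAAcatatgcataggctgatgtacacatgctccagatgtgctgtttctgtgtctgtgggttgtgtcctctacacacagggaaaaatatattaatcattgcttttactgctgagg
Col24a1: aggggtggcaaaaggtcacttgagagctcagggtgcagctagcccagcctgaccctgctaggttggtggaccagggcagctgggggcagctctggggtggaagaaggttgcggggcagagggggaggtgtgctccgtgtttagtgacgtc
Col7a1: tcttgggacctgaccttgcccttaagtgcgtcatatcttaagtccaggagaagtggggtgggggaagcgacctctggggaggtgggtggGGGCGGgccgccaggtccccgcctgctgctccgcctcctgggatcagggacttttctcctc
The motifs searched on both strands were CCAAT (the box that the factor NF-Y reads), TATAAA (the TATA box) and GGGCGG (the GC box of Sp factors), with no motif contained in another. RefSeq windows were found for 33 of the 41 members, 36 windows in all. CCAAT stood in 8 of these (22.2%) against 24.5% of all 32851 windows, TATAAA in 4 (11.1%) against 7.57%, and GGGCGG in 18 (50%) against 28.6%. The CCAAT of Col1a2 begins 109 bases before the start, the TATAAA of Col3a1 117 and the GGGCGG of Col7a1 61, and Col24a1 holds none of the 3 in this window. The type IV genes lie head to head on opposite strands: Col4a1 and Col4a2 on chromosome 8 start within an overlap of 22 bases, at 11312826 and 11312805, and Col4a6 and Col4a5 on chromosome X start 1343 bases apart, at 141474076 and 141475419.

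Array medians ran from 1.02 to 1.07 in the deposited intensity, and the correlation over probes within a group was 0.972 to 0.996. Nothing in the labels states that both arrays of a group came from different animals. The spread behind every p-value is therefore that between these arrays and may be technical. The low end was raised in 8 arrays, those of SCCVII and #8520 taken 1 or 3 days after 50 Gy: the 1st percentile of intensity was 0.297 to 0.378, while all others lay between 0.0128 and 0.134. NR-S1 carried the markers of its label, with untreated log2 levels of 8.38 for the basal keratin Krt5 and 7.29 for the epithelial adhesion molecule Epcam. SCCVII lacked them, with Krt5 at -1.62, Krt14 at -2.60 and Epcam at -0.91, and the mesenchymal genes Vim at 8.06 and Pdgfra at 6.46 were near their levels in the fibrosarcomas.

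Before irradiation each tumour had its own set of collagens. Of the 36 genes 35 differed between the 4 untreated tumours by limma's moderated F test, where 91.3% of all genes did, so the number itself is near the background. NFSa was high in fibrillar genes: 7 of 10 fibrillar genes were higher there than in NR-S1, 7 higher than in SCCVII and 7 higher than in #8520, while 2, 1 and 2 were lower. Over all genes NFSa was higher than NR-S1 in 34.4%, than SCCVII in 23.3% and than #8520 in 22.5%. It was lower in 39.9%, 39.5% and 31.5%, in the same order. In the plot of untreated levels the arrays of both arms are shown for every tested gene.

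**Figure D1:**
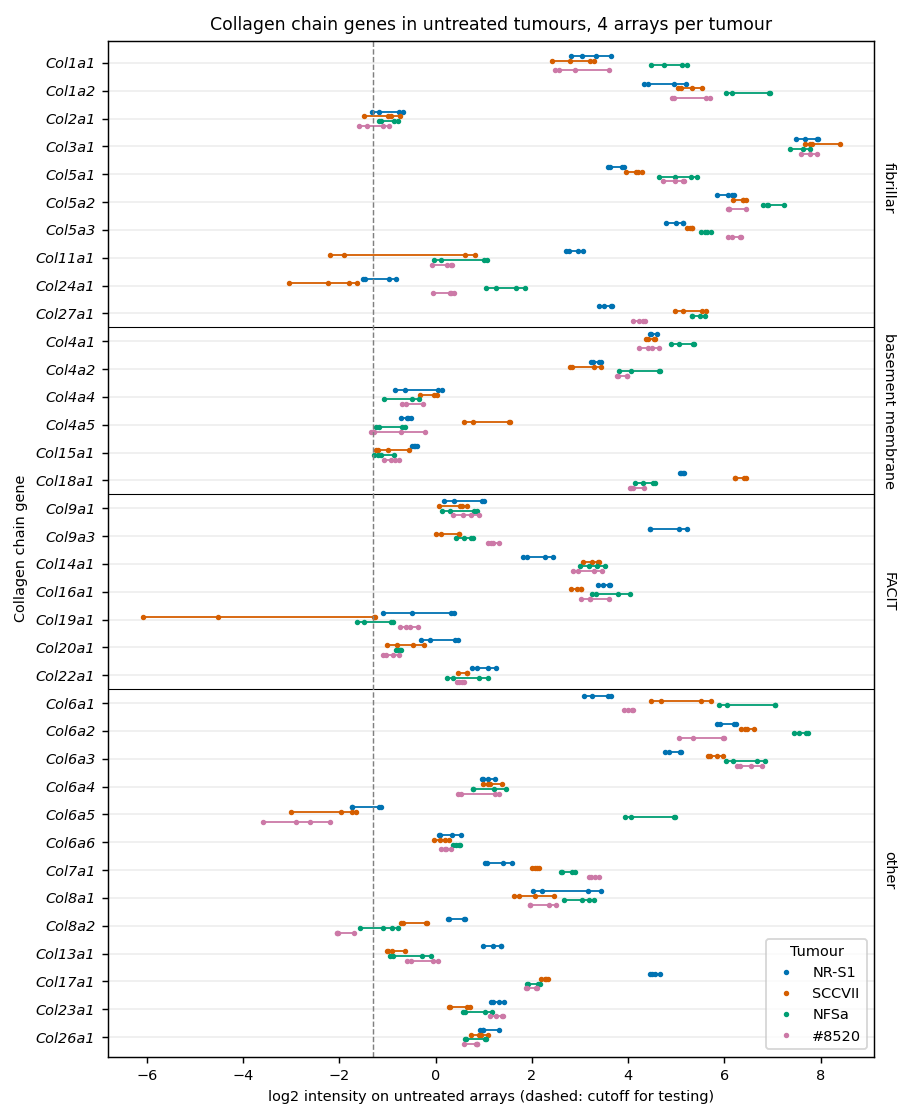
Untreated log2 intensity of the 36 tested collagen genes by class, with 4 arrays per tumour (2 of each arm) as points and a dashed line at -1.30, below which genes were not tested. Col9a3 and Col17a1 are highest in NR-S1, and Col6a5 lies above the line by several log2 units in NFSa alone.

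Col1a1, the main chain of type I collagen, read 5.13, 5.22, 4.75 and 4.48 (log2) on the 4 untreated arrays of NFSa. No untreated array of another tumour passed 3.64, and the log2 difference between NFSa and #8520 was 2.01 (SE 0.11, adjusted p = 6.0e-23). Col1a2, its partner chain, was higher in NFSa than in #8520 by 1.22. Col3a1, the type III chain of elastic tissues, was the least different of the large fibrillar genes, at log2 levels of 7.76 in NR-S1, 7.92 in SCCVII, 7.53 in NFSa and 7.81 in #8520, and its difference of -0.15 between NR-S1 and SCCVII missed the threshold (adjusted p = 0.12).
Col6a1, a chain of the beaded filaments of type VI, was ordered NFSa, SCCVII, #8520 and NR-S1. Its NFSa arrays read 7.05, 7.05, 6.06 and 5.88, those of SCCVII 4.69, 4.48, 5.50 and 5.71, those of #8520 4.10, 3.91, 4.0 and 4.08, and those of NR-S1 3.24, 3.09, 3.57 and 3.64. No tumour overlapped the next, and NR-S1 stood 3.12 log2 units below NFSa (SE 0.075, adjusted p = 1.9e-39). Col6a5, a type VI chain with a narrow tissue range, read 4.98, 4.95, 4.07 and 3.94 in NFSa, while its mean was below the cutoff in the other tumours (-1.45, -2.09 and -2.83).
The keratin-rich NR-S1 was set apart by other genes. Col9a3, a chain of the FACIT type IX collagen best known from cartilage, read 5.06, 5.22, 4.45 and 4.46 there and at most 1.31 on any other untreated array. The log2 difference was 4.53 against SCCVII (SE 0.060, adjusted p = 2.2e-51), 4.16 against NFSa and 3.61 against #8520. Col17a1, the transmembrane collagen by which basal keratinocytes hold to their basement membrane, read 4.55, 4.67, 4.50 and 4.44 in NR-S1, 2.27 above SCCVII (SE 0.068, adjusted p = 7.7e-35). It did not differ between NFSa and #8520, where the difference was 0.03 (adjusted p = 0.72).
Of the basement membrane genes, Col18a1, the source of the fragment endostatin, was highest in SCCVII at a log2 level of 6.32, 2.19 above #8520 (SE 0.074, adjusted p = 5.8e-32). Col4a5, a type IV chain of the kidney and skin, was also highest there, 2.04 above NFSa. Col4a1, the ubiquitous type IV chain, was level in NR-S1, SCCVII and #8520 (4.49, 4.47 and 4.44) and 5.17 in NFSa. Col7a1, the anchoring fibril chain, was lowest in NR-S1 and highest in #8520, a difference of -2.01 (SE 0.082, adjusted p = 8.7e-29).
The untreated groups of both arms were not alike. The gamma arm differed from the carbon-ion arm at 18 of 36 members in NR-S1 (49.3% of all genes did), 18 in SCCVII (46.4%), 24 in NFSa (49.2%) and 11 in #8520 (35.6%). The largest concerned SCCVII, where Col19a1 was -4.03 (SE 0.23, adjusted p = 3.2e-21) and Col11a1 -2.77 (SE 0.11, adjusted p = 7.9e-28) in the gamma arm relative to the carbon-ion arm. In the gamma arm both genes lay below the cutoff (-4.53 and -6.09, and -2.20 and -1.91), so these sizes are uncertain. In Col6a1 the arm difference was 1.02 in SCCVII and -1.08 in NFSa. The errors and p-values given for differences between untreated tumours rest on the spread within groups of 2 arrays. They leave out these arm differences, so they overstate the precision.

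At 6 h after carbon ions the collagen genes that had changed were mostly higher, with Col19a1 and Col9a3 as the largest means. As means over the tumours 11 of 36 were higher and 2 lower, together 36.1%, where 40.5% of all genes were called (21% higher and 19.5% lower). With arrays centred on their median 4 were lower instead of 2. Of the FACIT genes 4 of 7 were higher and 1 lower, against 2 and 1 of 10 fibrillar genes, 1 and 0 of 6 basement membrane genes and 4 and 0 of 13 others. In NR-S1 alone 12 members were higher and 2 lower, where 29.8% of all genes were called (14.5% and 15.2%). The counts were 5 and 3 in SCCVII (16.3% of all genes), 8 and 4 in NFSa (36%) and 7 and 2 in #8520 (28.4%).
Col19a1, a FACIT chain of muscle and brain, was higher by 0.73 (log2, SE 0.11, adjusted p = 6.1e-07), from untreated levels near or below the cutoff in SCCVII and NFSa. Col9a3 was higher by 0.60 (log2, SE 0.043, adjusted p = 2.2e-17), Col5a3, the rarest chain of the fibril-nucleating type V collagen, by 0.50 (SE 0.068, with an array of SCCVII missing) and Col18a1 by 0.41 (SE 0.053, adjusted p = 6.0e-09). Col27a1, a cartilage fibrillar chain, was higher by 0.36, and Col14a1 and Col20a1, both FACIT chains, by 0.32 and 0.33. Col16a1, a FACIT chain of skin and muscle, fell by 0.39, and Col2a1, the cartilage chain, by 0.17. The main type I chains had no call as means, at -0.05 for Col1a1 and -0.02 for Col1a2, because the tumours opposed each other. Col1a1 rose in NR-S1, from 3.03 and 2.81 to 3.75 and 3.57 (0.74), and fell in #8520, from 3.60 and 2.90 to 2.73 and 2.54 (-0.62). Col1a2 rose in NR-S1 (0.50) and fell in NFSa (-0.33).

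On day 1 after carbon ions collagen genes of most classes were higher, and the tumour #8520 took the largest share. Of 36 members 20 were higher and 2 lower as means over the tumours, 61.1% in all, where 42.1% of all genes were called, 25.5% higher and 16.6% lower. The median response of the members was 0.25 and that of all genes 0.01. Fibrillar genes were higher in 7 of 10 and lower in 0 (median 0.31), basement membrane genes in 4 of 6 and 0 (median 0.22), FACIT genes in 3 and 1 of 7 (median 0.04) and the others in 6 and 1 of 13 (median 0.11). Without #8520, a setting added after the data were seen, 12 were higher and 3 lower.
In #8520 alone 23 members were higher and 2 lower (30.4% and 18.5% of all genes), with a median of 0.60. The counts were 12 and 6 in NR-S1 (18.7% and 16.4%), 12 and 2 in SCCVII (17.8% and 11.1%), and 3 and 1 in NFSa (9.1% and 6.99%). The heat map of carbon-ion responses shows most increases in the column of #8520 at day 1, where 8 of 10 fibrillar, 5 of 6 basement membrane, 2 of 7 FACIT and 8 of 13 other genes were higher and 1 fibrillar and 1 FACIT gene lower.

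**Figure D2:**
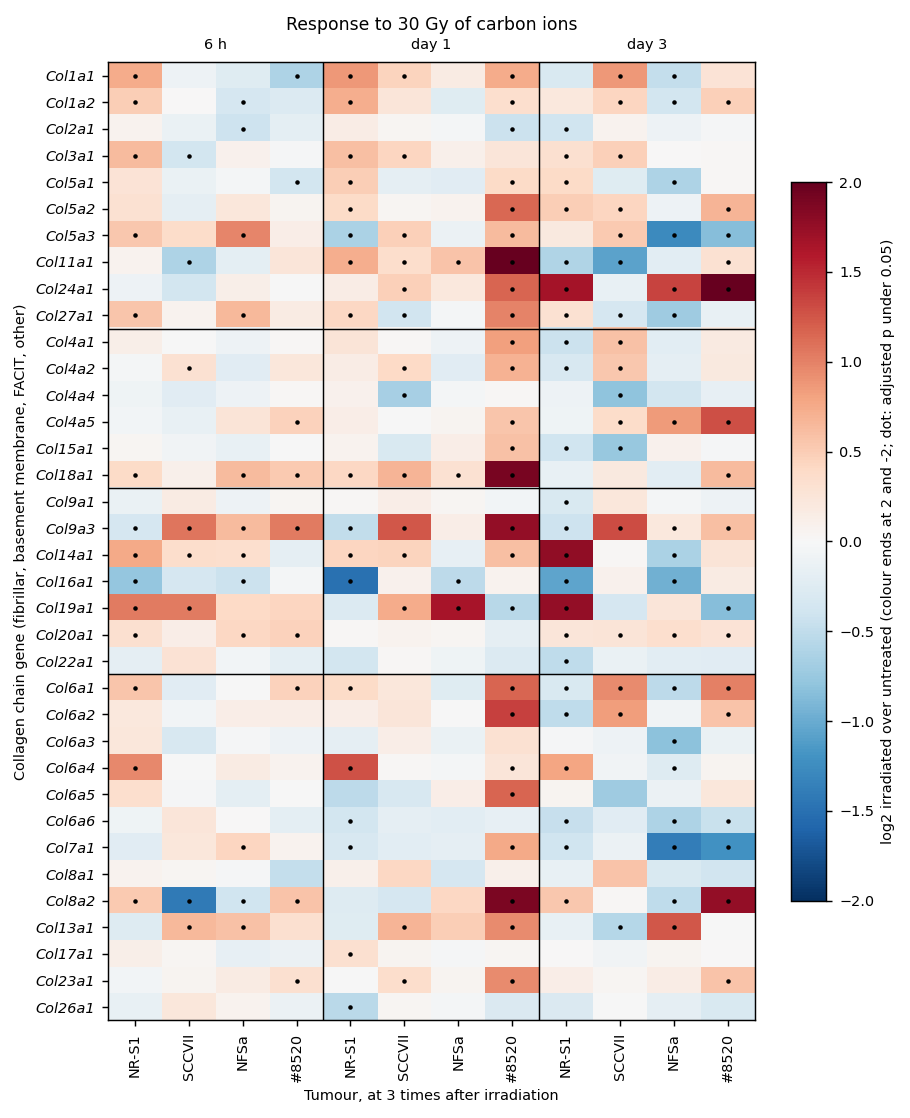
Responses to 30 Gy of carbon ions (log2 irradiated minus untreated of the same tumour, colour ends at -2 and 2) of the 36 tested collagen genes, in rows by class, for 4 tumours at 3 times in columns, with a dot where the adjusted p was under 0.05. Dots are densest for #8520 at day 1 (25 of 36) and sparsest for NFSa at day 1 (4 of 36).

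The type I genes rose with the rest. In NR-S1 Col1a1 read 3.03 and 2.81 on the untreated arrays and 3.84 and 3.74 at day 1, a log2 response of 0.87 (SE 0.15, adjusted p = 7.5e-06). In SCCVII it went from 2.79 and 2.42 to 3.00 and 3.09 (0.44), in #8520 from 3.60 and 2.90 to 4.0 and 3.99 (0.74), and in NFSa from 5.13 and 5.22 to 5.29 and 5.38 (0.16, which did not pass). Irradiated and untreated arrays did not overlap in any of the tumours, and the mean response was 0.55 (SE 0.076, adjusted p = 2.2e-08), 0.49 without #8520.
Col1a2 was less even. It read 4.41 and 4.33, then 5.08 and 5.11, in NR-S1 (0.72), and 5.62 and 5.71, then 5.92 and 6.09, in #8520 (0.34). In NFSa it went the other way, from 6.93 and 6.95 to 6.77 and 6.64 (-0.24, not passing), and SCCVII moved from 5.04 and 5.09 to 5.26 and 5.38 (0.25, not passing). Its mean of 0.27 (SE 0.062, adjusted p = 3.3e-04) became 0.14 and missed the threshold under quantile normalization (adjusted p = 0.067).
Col3a1 rose by 0.34 (SE 0.063, adjusted p = 1.1e-05), from 7.95 and 7.93 to 8.35 and 8.74 in NR-S1 (0.61) and from 8.39 and 7.82 to 8.42 and 8.65 in SCCVII (0.43). In NFSa (7.62 and 7.79, then 7.75 and 7.85) and #8520 (7.60 and 7.77, then 7.87 and 8.0) its responses of 0.10 and 0.24 did not pass. Col5a2, the type V chain that joins type I fibrils, rose by 0.41 (SE 0.060, adjusted p = 1.2e-07), most in #8520, where it went from 6.08 and 6.10 to 7.35 and 7.12 (1.14).
The largest response to carbon ions in a single tumour was that of Col11a1 in #8520. Col11a1 is a chain of the type XI collagen that nucleates cartilage fibrils and is often made by tumour fibroblasts. It read 0.33 and 0.31 untreated and 3.11 and 3.06 at day 1, a 6.79-fold increase (log2 response 2.76, SE 0.11, adjusted p = 3.0e-27). NR-S1 went from 2.96 and 3.05 to 3.61 and 3.86 (0.73), SCCVII from 0.62 and 0.82 to 1.15 and 1.00 (0.36) and NFSa from -0.04 and 0.11 to 0.55 and 0.67 (0.58). All 4 tumours passed with no overlap, and the mean of 1.11 (SE 0.056, adjusted p = 2.0e-23) was 0.55 without #8520 (adjusted p = 4.6e-10).
Among the basement membrane genes Col18a1 rose in every tumour. It went from 4.32 and 4.04 to 6.04 and 6.12 in #8520 (1.91), from 6.44 and 6.21 to 7.0 and 7.02 in SCCVII (0.68), from 5.09 and 5.08 to 5.43 and 5.56 in NR-S1 (0.41) and from 4.55 and 4.52 to 4.86 and 4.82 in NFSa (0.30). The mean was 0.82 (SE 0.053, adjusted p = 3.2e-19), and 0.46 without #8520 (adjusted p = 1.1e-08). The type IV pair Col4a1 and Col4a2, whose head-to-head position is given above, had means of 0.25 (SE 0.053) and 0.26 (SE 0.054). Both were higher in #8520, where Col4a1 went from 4.41 and 4.23 to 5.11 and 5.18 (0.82) and Col4a2 from 3.78 and 3.98 to 4.50 and 4.67 (0.70). In SCCVII they parted, with Col4a2 higher (2.83 and 2.79, then 3.22 and 3.21, 0.40) and Col4a1 not (0.02). Without #8520 they were 0.06 and 0.11 and neither passed (adjusted p = 0.51 and 0.18).
Of the type VI chains, Col6a1 and Col6a2 also rested on #8520. Col6a1 went from 4.10 and 3.91 to 5.06 and 5.29 in #8520 (1.17) and from 3.24 and 3.09 to 3.48 and 3.63 in NR-S1 (0.39), while SCCVII (4.69 and 4.48, then 4.76 and 4.85) and NFSa (7.05 and 7.05, then 6.77 and 6.85) did not pass. The mean of 0.38 (SE 0.053, adjusted p = 2.4e-08) was 0.12 without #8520 (adjusted p = 0.11). Col6a2 rose by 0.44 (SE 0.057), was 0.12 without #8520 (adjusted p = 0.14), and with the mean of both its probes turned to -0.13, so its probes disagreed. Col6a4, a minor type VI chain, was higher mainly in NR-S1, from 0.96 and 0.98 to 2.20 and 2.31 (1.28), and Col6a3 had no call (0.03). Col8a2, a type VIII chain of vessel walls and cornea, went from -2.05 and -1.70 to 0.05 and -0.03 in #8520 (1.88), and its mean of 0.42 was -0.06 without that tumour. Both untreated arrays there lay below the cutoff of -1.30, so the size of this change is uncertain.
Col9a3 was the gene whose direction depended most on the tumour. It rose in #8520 from 1.15 and 1.31 to 3.09 and 2.87 (1.75, SE 0.085) and in SCCVII from 0.47 and 0.47 to 1.69 and 1.73 (1.24), and fell in NR-S1 from 5.06 and 5.22 to 4.58 and 4.69 (-0.50, SE 0.085, adjusted p = 5.3e-06). NFSa did not pass at day 1, with 0.78 and 0.73 then 0.89 and 0.88. Its mean was 0.66, and 0.29 without #8520 (adjusted p = 4.0e-06).
Of the others higher at day 1, Col24a1 (0.51), Col13a1 (0.47), Col19a1 (0.39), Col6a4 (0.38), Col23a1 (0.34), Col14a1 (0.33), Col27a1 (0.25) and Col4a5 (0.18) had the means given. Tumours opposed each other in some of these. Col27a1 was 0.99 in #8520 and 0.42 in NR-S1, but -0.38 in SCCVII and -0.04 in NFSa. Col19a1 was 1.65 in NFSa and 0.74 in SCCVII, but -0.27 in NR-S1 and -0.56 in #8520. Its untreated levels in NFSa and SCCVII were near or below the cutoff. Col4a5 missed the threshold without #8520, at 0.06 (adjusted p = 0.58), turned to -0.11 against the untreated tumours of both arms, and lost its call without any of 4 single arrays (0.14 to 0.17). Col24a1 kept its call without #8520, at 0.28 (adjusted p = 0.030). The 2 lower genes were Col16a1 (-0.46), which fell in NR-S1 from 3.48 and 3.59 to 2.28 and 1.81 (-1.49, SE 0.14, adjusted p = 9.6e-13), and Col6a6, a minor type VI chain (-0.23).
Markers of other cells moved on the same arrays. Of 17 tested fibroblast genes (18 in the list) 10 were higher and 1 lower as means at day 1 (median 0.41), of 8 smooth muscle and pericyte genes (9) 7 and 0, of 10 endothelial genes (12) 9 and 0 and of 16 skeletal muscle genes (18) 15 and 0 (median 0.63). In #8520 the summed intensity of the fibroblast genes was 952 to 1026 on the untreated arrays and 1307 to 1372 at day 1, and that of the endothelial genes 54.0 to 58.0 and 95.0 to 105. The median of the skeletal muscle genes at day 1 was 0.12 in #8520 and 1.28 in NFSa. In whole tumours more cells of a type and more RNA per cell cannot be told apart, and the part of these markers in the collagen responses was not tested.

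By day 3 after carbon ions the family had split. Of 36 members 14 were higher and 11 lower, 69.4% together, where 68.2% of all genes were called (26.4% higher and 41.8% lower). Each class held both directions: 4 and 3 of 10 fibrillar genes, 2 and 2 of 6 basement membrane genes, 3 and 2 of 7 FACIT genes and 5 and 4 of 13 others. The median of the members was 0.05 and that of all genes -0.08. Per tumour, 10 were higher and 13 lower in NR-S1 (20.9% and 42.1% of all genes), 12 and 5 in SCCVII (23.5% and 15.6%), 5 and 13 in NFSa (19.3% and 28.1%) and 12 and 4 in #8520 (19.1% and 31.1%).
Col24a1, a fibrillar chain known from developing bone and cornea, had the largest mean response, 1.25 (SE 0.091, adjusted p = 8.7e-18), and 0.95 without #8520. It went from 0.30 and 0.38 to 2.56 and 2.41 in #8520, a 4.44-fold increase (2.15, SE 0.18), from -0.82 and -0.98 to 0.81 and 0.70 in NR-S1 (1.66) and from 1.26 and 1.05 to 2.51 and 2.51 in NFSa (1.35). In SCCVII it stayed below the cutoff, and no change is given there. NR-S1 had not passed at 6 h or day 1 (-0.10 and 0.15), nor had NFSa (0.12 and 0.22), while #8520 had at day 1 (1.17).
Col7a1 was the largest decrease, with a mean that fell by 0.78 (SE 0.058, adjusted p = 2.6e-17). It went from 2.83 and 2.90 to 1.50 and 1.47 in NFSa (-1.38, SE 0.12), from 3.18 and 3.40 to 2.17 and 1.98 in #8520 (-1.21) and from 1.02 and 1.07 to 0.74 and 0.56 in NR-S1 (-0.40). In SCCVII the arrays overlapped (1.99 and 2.11, then 1.84 and 2.01) and -0.12 did not pass. In #8520 it had first been higher, at 4.06 and 4.04 on day 1 (0.76), so that the same tumour passed in both directions.
The plot of single arrays follows these genes over time in both 30 Gy arms.

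**Figure D3:**
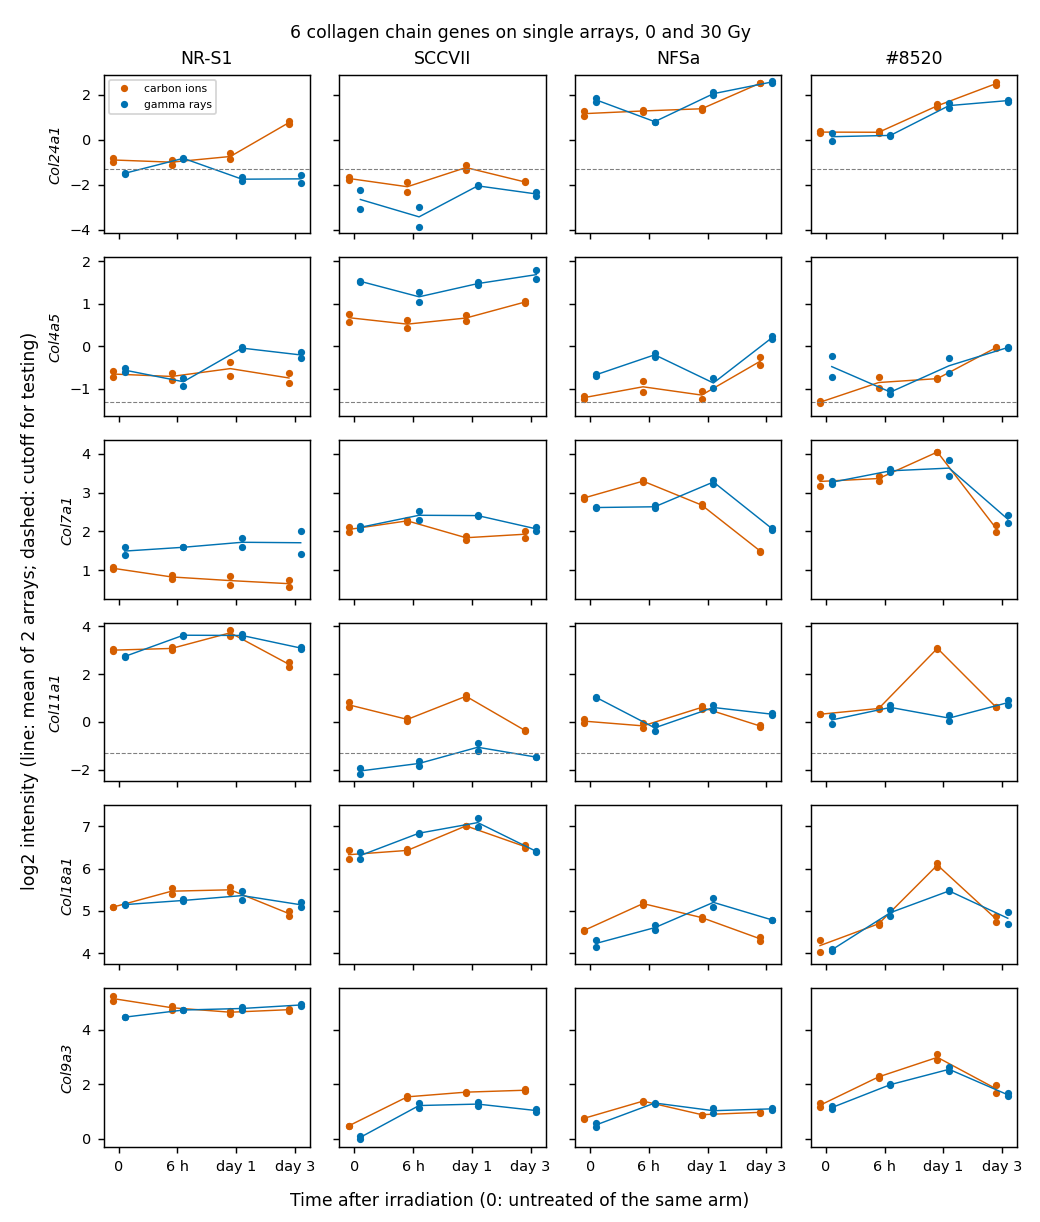
Log2 intensity on single arrays for Col24a1, Col4a5, Col7a1, Col11a1, Col18a1 and Col9a3 in 4 tumours, untreated and at the 3 times after carbon ions (orange) or gamma rays (blue), both at 30 Gy, with lines through the means of 2 arrays. Col11a1 in #8520 peaks at day 1 after carbon ions (3.11 and 3.06) and not after gamma rays (0.03 and 0.29), and Col7a1 ends below its untreated level in NFSa and #8520 after carbon ions.

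Col4a5 rose by 0.60 (SE 0.065, adjusted p = 8.4e-12), and 0.38 without #8520 (adjusted p = 2.0e-05). It went from -1.29 and -1.34 to -0.02 and -0.04 in #8520 (1.28), from -1.17 and -1.24 to -0.44 and -0.26 in NFSa (0.86) and from 0.58 and 0.77 to 1.06 and 1.02 in SCCVII (0.37), while NR-S1 overlapped (-0.58 and -0.72, then -0.87 and -0.62). Col4a1 and Col4a2 were back near their untreated means, at 0.03 and 0.06. Behind this Col4a1 was higher in SCCVII (4.37 and 4.42, then 5.10 and 4.87) and lower in NR-S1 (4.59 and 4.48, then 4.0 and 4.20), and Col4a2 likewise was higher in SCCVII (2.83 and 2.79, then 3.38 and 3.32) and lower in NR-S1 (3.27 and 3.22, then 3.04 and 2.79).
Col18a1 had almost returned, at a mean of 0.12 that passed narrowly (adjusted p = 0.046) and lost its call without #8520 (-0.05). Leaving out any of 10 single arrays also ended it, at 0.08 to 0.12: both untreated and 1 day 3 array of NR-S1 and of NFSa, and 1 untreated and 1 day 3 array of SCCVII and of #8520. Col4a4, a chain of the kidney filter membrane, fell by 0.36 (SE 0.12, adjusted p = 0.011) and was -0.06 with the mean of its probes (adjusted p = 0.55). Col15a1, a collagen of vessel and muscle basement membranes, fell by 0.27.
Type I and III genes were close to untreated at day 3. Col1a1 had a mean of 0.09, which did not pass, made of 0.86 in SCCVII (2.79 and 2.42, then 3.53 and 3.40) and -0.48 in NFSa (5.13 and 5.22, then 4.81 and 4.58). Col1a2 was higher by 0.19, and 0.09 without #8520 (adjusted p = 0.27), and Col3a1 by 0.21 (SE 0.063, adjusted p = 3.4e-03). Col5a2 was higher by 0.37. Col11a1, high at day 1, fell by 0.39 (SE 0.056, adjusted p = 1.9e-08), with -1.07 in SCCVII (-0.33 and -0.37) and -0.59 in NR-S1 (2.53 and 2.30), although 0.30 remained in #8520 (0.63 and 0.61). Col5a3 fell by 0.35 as a mean of opposed tumours. It fell in NFSa from 5.60 and 5.51 to 4.29 and 4.28 (-1.27) and in #8520 (-0.85). In SCCVII it was 0.52 and in NR-S1 0.19. Col27a1 fell by 0.23.
Among type VI genes Col6a1 was higher by 0.28 as a mean (SE 0.053, adjusted p = 5.1e-06), and 0.04 without #8520 (adjusted p = 0.56), since the tumours opposed each other. It went from 4.10 and 3.91 to 4.98 and 5.05 in #8520 (1.01), from 4.69 and 4.48 to 5.48 and 5.59 in SCCVII (0.95), from 7.05 and 7.05 to 6.60 and 6.44 in NFSa (-0.52) and from 3.24 and 3.09 to 2.99 and 2.74 in NR-S1 (-0.30). Col6a2 was higher by 0.21 (0.09 without #8520, adjusted p = 0.25, and -0.01 with the mean of its probes), Col6a3 fell by 0.26 and Col6a6 by 0.43. Col8a2 was higher by 0.45, from -2.05 and -1.70 to -0.32 and 0.10 in #8520, where the untreated arrays lay below the cutoff, and by 0.02 without that tumour. Of the membrane-spanning collagens Col23a1 was higher by 0.22, Col13a1 did not pass (0.13), and Col17a1 was at 0.00 and passed in a single tumour and time after carbon ions, NR-S1 at day 1 (4.55 and 4.67, then 4.77 and 5.08).
The FACIT gene Col16a1 fell by 0.44 (SE 0.069, adjusted p = 1.7e-07), in NR-S1 from 3.48 and 3.59 to 2.52 and 2.44 (-1.06) and in NFSa from 4.05 and 3.79 to 2.96 and 2.95 (-0.97), with no call in SCCVII (0.08) or #8520 (0.17). Col14a1, which binds fibril surfaces in tendon and skin, was higher by 0.35 as a mean of opposed tumours. It rose in NR-S1 from 1.89 and 1.81 to 3.68 and 3.59, a 3.44-fold increase, fell in NFSa from 3.19 and 3.0 to 2.38 and 2.54 (-0.64), and had no call in SCCVII (0.02) or #8520 (0.26). On the same NR-S1 arrays the summed skeletal muscle intensity went from 790 to 824 untreated to 1795 to 1943, and that of macrophage genes from 160 to 165 to 699.5 to 712. Whether these shifts bear on Col14a1 was not tested. Col9a3 was higher by 0.43, Col20a1 by 0.28, and Col22a1, a collagen of tissue junctions, fell by 0.27, as Col26a1 did by 0.20.
Set directly against 6 h, 6 members were higher at day 3 and 13 lower, 52.8%, where 62.6% of all genes were called (21.5% higher and 41.1% lower). Under quantile normalization the counts were 10 and 11. Col24a1 led the increases at 1.34 (adjusted p = 1.1e-18), and Col7a1 at -0.90 (adjusted p = 1.2e-19) and Col5a3 at -0.86 (adjusted p = 4.1e-15) the decreases. The 5 members Col5a1, Col8a1, Col9a1, Col6a5 and Col17a1 passed at no time after carbon ions as means.

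The tumours differed in how their collagens responded. By the moderated F test 19 of 36 carbon-ion responses differed between tumours at 6 h (45% of all genes), 26 at day 1 (58.3%) and 27 at day 3 (61.9%). At 6 h the largest F values were those of Col9a3 (58.6), Col8a2 (38.5) and Col6a4 (20.4). Col8a2 fell in SCCVII from -0.19 and -0.20 to -1.73 and -1.50. At day 1 Col9a3 (144), Col11a1 (99.6) and Col18a1 (49.1) led, the latter pair through #8520, and at day 3 Col14a1 (79.6), Col9a3 (70.4) and Col6a1 (59.1). Each of these was adjusted over all genes, with the weakest at 1.8e-07.

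Gamma rays at the same 30 Gy also gave mostly increases at day 1. Of 36 members 10 were higher and 7 lower at 6 h (37.7% of all genes called, 19.3% higher and 18.4% lower), 16 and 1 of 35 at day 1 (42.8%, 21.2% and 21.7%) and 12 and 7 of 36 at day 3 (54.1%, 23.1% and 30.9%). Col6a5 had no value on the NR-S1 arrays of day 1 and could not be fitted there. The higher sets of carbon ions and gamma rays, which rest on separate untreated tumours, shared 8 genes at 6 h (72.7% of the carbon-ion set and 80% of the gamma set), 12 at day 1 (60% and 75%) and 9 at day 3 (64.3% and 75%). Over all genes the shared parts of the higher sets were 58.9% and 64.2%, 49.4% and 59.5%, and 64.8% and 74.0%, in the same order. The lower sets held 2 and 7 members at 6 h, 2 and 1 at day 1 and 11 and 7 at day 3. They shared 0, 0 and 4 members (36.4% and 57.1% at day 3). Over all genes the shared parts of the lower sets were 48.2% and 51.0%, 48.8% and 37.4%, and 58.5% and 79.0%. Called in opposite directions were Col8a2 at day 1 and Col11a1 and Col14a1 at day 3. For Col11a1 the untreated gamma arrays of SCCVII lay below the cutoff. Its gamma mean at day 3 turned from higher to lower against the untreated tumours of both arms.
Col18a1 and Col9a3 rose after gamma rays at all times. Col18a1 was higher by 0.47, 0.84 (adjusted p = 2.2e-19) and 0.35 at 6 h, day 1 and day 3, and in #8520 at day 1 it went from 4.06 and 4.09 to 5.48 and 5.46 (1.39). Col9a3 was higher by 0.77, 0.86 and 0.62, and it was higher in NR-S1 as well (0.26, 0.32 and 0.45), where it had fallen after carbon ions (difference between beams -0.82 at day 1). In NR-S1 the untreated arrays of the carbon-ion arm lay above those of the gamma arm for Col9a3, so that difference rests on unlike starting levels. Col13a1, a collagen of cell adhesion sites, was higher by 0.25, 0.56 and 0.36. Col6a3 was higher at day 1 by 0.42, from 5.71 and 5.65 to 6.47 and 6.25 in SCCVII (0.68) and from 6.18 and 6.03 to 6.66 and 6.78 in NFSa (0.62).
At day 3 Col24a1 was higher by 0.60 (adjusted p = 1.4e-07), from 1.86 and 1.67 to 2.59 and 2.53 in NFSa (0.80) and from -0.05 and 0.32 to 1.69 and 1.77 in #8520 (1.60). Without #8520 it was 0.26 (adjusted p = 0.037), and in NR-S1 the untreated and day 3 arrays were below the cutoff. Col4a5 was higher by 0.46 (adjusted p = 2.7e-08). Col7a1 fell by 0.33 (adjusted p = 2.8e-06), after a rise of 0.39 at day 1, and -0.12 without #8520 did not pass (adjusted p = 0.13). Col15a1 fell by 0.49, Col5a3 by 0.39, Col14a1 by 0.31, Col27a1 by 0.27 and Col5a1, the main type V chain, by 0.15. The type I genes had no call at day 3, at 0.05 and 0.12, nor Col3a1 at -0.12, for which an untreated array each of NFSa and #8520 was missing.

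The difference between the beams was tested directly as carbon-ion response minus gamma response at 30 Gy. At 6 h it was called for 4 members higher and 3 lower (15.9% of all genes, 9.28% and 6.62%), at day 1 for 8 and 5 of 35 (25.1%, 17.1% and 8.03%) and at day 3 for 5 and 7 (36%, 15.8% and 20.2%). With arrays centred on their median the counts at 6 h were 3 and 4, and leaving out single arrays gave 4 to 7 calls there.
At 6 h the largest differences were those of Col14a1 at 0.46 (SE 0.081, adjusted p = 3.2e-05), Col4a2 at 0.35 (SE 0.077, adjusted p = 7.3e-04) and Col6a2 at -0.33 (SE 0.080, adjusted p = 2.6e-03). For Col14a1 the difference was 0.90 in NR-S1 and 1.01 in NFSa, with no call in SCCVII or #8520.
At day 1 the fibrillar gene Col11a1 and the network gene Col8a2 were the most above gamma rays after carbon ions. Col11a1 differed by 0.72 (SE 0.079, adjusted p = 1.4e-10), but by 2.69 in #8520, 1.00 in NFSa and -0.64 in SCCVII, and -0.15 in NR-S1 did not pass. In #8520 the gamma arrays went from -0.08 and 0.24 to 0.03 and 0.29, against the 6.79-fold increase after carbon ions. In SCCVII the untreated gamma arrays, at -2.20 and -1.91, lay well below those of the carbon-ion arm, so its difference rests on unlike starting levels. Col8a2 differed by 0.79 (SE 0.11, adjusted p = 5.8e-08), with 2.09 in #8520, where the untreated arrays of both arms lay below the cutoff and the size is uncertain, and 1.20 in NFSa. Col16a1 differed by -0.60 (SE 0.098, adjusted p = 3.3e-06), with -1.35 in NR-S1 and -0.84 in NFSa. Col1a1 differed by 0.39 and Col3a1 by 0.30, while Col1a2 and the type VI genes Col6a1 and Col6a2 had no call.
At day 3 Col14a1 differed by 0.66 (SE 0.081, adjusted p = 2.4e-09), which was 2.37 in NR-S1 with no call in the other tumours. The gamma arrays of NR-S1 had gone down, from 2.26 and 2.45 to 1.84 and 1.68 (-0.59). Col24a1 differed by 0.65 (SE 0.13, adjusted p = 5.2e-05), again called in NR-S1 alone (1.90), where the untreated and day 3 gamma arrays were below the cutoff. Col11a1 differed by -0.63 (SE 0.079, adjusted p = 3.8e-09) and Col7a1 by -0.45 (SE 0.082, adjusted p = 1.8e-05). The Col11a1 difference again includes the unlike starting levels of the 2 arms in SCCVII.

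After 50 Gy of gamma rays most collagen genes were called at day 1 and day 3, in both directions, and the largest decreases lay in SCCVII and #8520. At 6 h 10 of 35 members were higher and 9 lower (49.7% of all genes, 22.8% and 26.9%), at day 1 17 and 11 of 36 (68.2%, 23.1% and 45.1%) and at day 3 15 and 12 (73.4%, 28.7% and 44.7%). Under quantile normalization the counts at day 3 were 10 and 12. In NR-S1 and NFSa alone 5 members were higher and 2 lower at day 1 (16.2% and 13% of all genes) and 9 and 8 at day 3 (22.4% and 23.8%). Fibrillar genes were higher in 7 and lower in 2 of 10 at both late times, and the other collagens higher in 3 and lower in 7 of 13. The fibrillar counts were unlike between tumours. In #8520 8 were higher and 2 lower at day 1 (21.9% and 44.1% of all genes), and 7 and 1 at day 3 (27.8% and 39.9%). SCCVII had 4 and 3 (18.3% and 46.9%), then 4 and 4 (21.7% and 48.1%). NR-S1 had 0 and 4 (10.5% and 13.2%), then 1 and 2 (17% and 21.7%). NFSa had 2 and 0 (15.9% and 9.13%), then 1 and 2 (20.6% and 15.8%). Col4a4 could not be fitted at 6 h.
Col6a3, the long type VI chain, went in SCCVII from 5.71 and 5.65 to 3.58 and 2.80 at day 1 (-2.49, SE 0.16, adjusted p = 2.9e-19) and to 2.29 and 2.81 at day 3 (-3.13). In #8520 it went from 6.26 and 6.33 to 3.25 and 3.93 (-2.70) and to 3.33 and 3.50 (-2.88). In NR-S1 and NFSa the day 1 responses were -0.19 and 0.29 and did not pass. Its sister chain Col6a1 had a mean of 0.05 over the 4 tumours at day 1. Col6a1 was not among the members at least 2-fold lower in both SCCVII and #8520 at both late times.
Col16a1 went in SCCVII from 2.93 and 3.01 to 0.42 and 0.50 (-2.51) and 0.16 and 0.26 (-2.76), and in #8520 from 3.20 and 3.20 to 0.98 and 1.22 (-2.10) and 1.05 and 0.60 (-2.38). Col5a3 went in SCCVII from 5.33 and 5.22 to 3.36 and 3.58 (-1.80) and 3.73 and 4.02 (-1.40), and in #8520 from 6.08 and 6.35 to 3.86 and 4.55 (-2.01) and 3.05 and 3.51 (-2.93). For each of the 3 genes the irradiated arrays lay far below the untreated ones in these tumours. In NR-S1 and NFSa no response at these times went lower than -0.63 (Col16a1 in NR-S1 at day 3), as the plot by gamma dose shows.

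**Figure D4:**
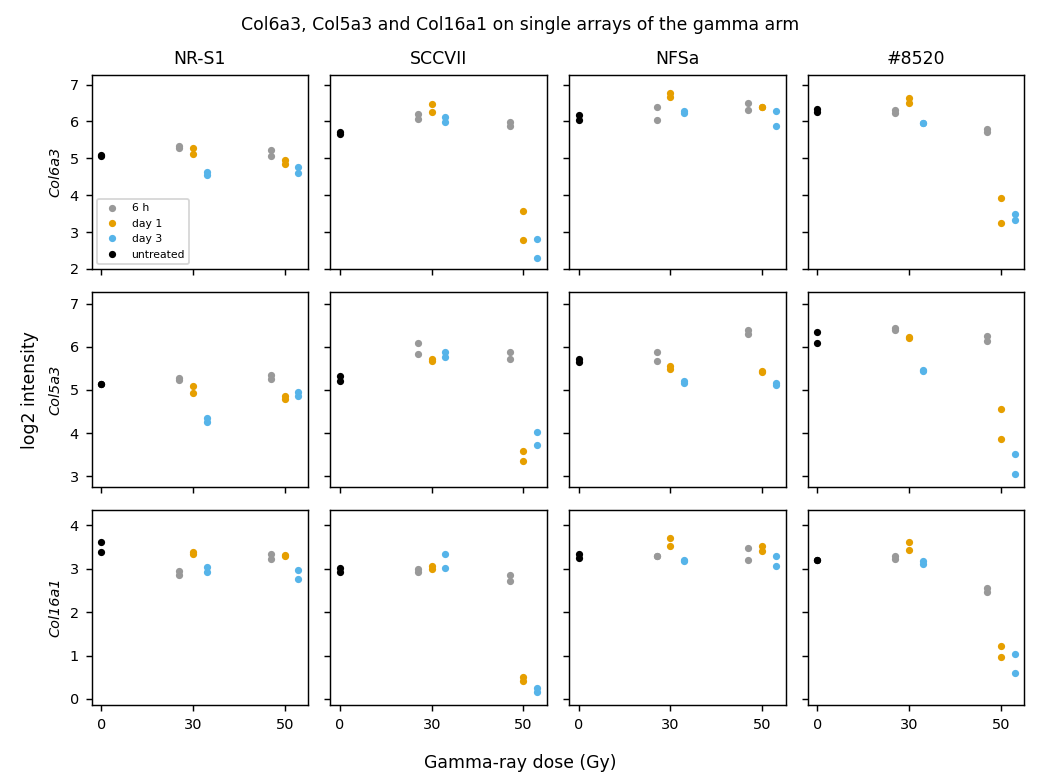
Log2 intensity on single arrays for Col6a3, Col5a3 and Col16a1 against the gamma dose (0, 30 and 50 Gy) in 4 tumours, with the 3 times in separate colours and set slightly apart. At 50 Gy the day 1 and day 3 points of SCCVII and #8520 drop, Col6a3 to between 2.29 and 3.93, while NR-S1 and NFSa stay near their untreated levels.

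These 3 were the members at least 2-fold lower in SCCVII and #8520 at both day 1 and day 3 after 50 Gy, as were 622 of 13437 genes (4.63%). After 30 Gy 7 genes and 0 members met that description, and in NR-S1 and NFSa after 50 Gy 1 gene and 0 members. The arrays concerned are the 8 whose low end was raised, and what part that has in these values was not tested. Col24a1 and Col6a5 were the members at least 2-fold higher there, as were 173 genes (1.29%), and in SCCVII both began below the cutoff, as Col6a5 did in #8520, at -2.91 and -2.62. Col24a1 in SCCVII read -3.06 and -2.24 untreated and -0.78 to -0.73 at 50 Gy.
The dose difference, 50 minus 30 Gy, was called for 3 members higher and 6 lower of 35 at 6 h (27.1% of all genes, 10.9% and 16.2%), 9 and 17 of 35 at day 1 (62.8%, 19.6% and 43.1%) and 12 and 14 of 36 at day 3 (59.5%, 23.9% and 35.5%). At 6 h quantile normalization gave 5 and 5. It was largest at both late times for Col6a3 (-1.69, SE 0.079, adjusted p = 5.1e-24, and -1.53), Col16a1 (-1.30 and -1.35) and Col5a3 (-1.13 and -0.90). In single tumours the Col6a3 difference at day 1 was -3.17 in SCCVII and -2.97 in #8520, with -0.31 in NR-S1 and -0.33 in NFSa not passing. At 6 h the largest were Col19a1 at 0.46 (adjusted p = 1.6e-03), Col20a1 at 0.37 (adjusted p = 2.3e-08) and Col1a1 at -0.36 (adjusted p = 1.9e-04).
Several responses to 50 Gy went with those to 30 Gy. Col9a3 was higher by 0.52, 0.84 and 0.83 at the 3 times, Col13a1 by 0.33, 0.50 and 0.53, and Col20a1 by 0.71, 0.39 and 0.54. Col24a1 was higher by 0.98 at day 1 and 1.46 at day 3 (adjusted p = 2.5e-20), and Col7a1 fell by 0.80 at day 3 (adjusted p = 1.2e-17). Other genes did not follow this. Col18a1, high at day 1 after 30 Gy (0.84), was at 0.32. At day 3 its mean over the tumours was negative, while it had been higher after 30 Gy. Col19a1 was higher by 1.58, 1.04 and 0.98, resting on SCCVII, where its untreated gamma arrays read -4.53 and -6.09, below the cutoff. Col8a1, a vessel-wall chain with no call after carbon ions, fell by 0.34, 0.32 and 0.36. Col23a1, called higher at day 3 after 30 Gy of gamma rays, fell by 0.41 and 0.23 at the late times after 50 Gy. Col2a1 was higher by 0.31 and 0.26 there, Col22a1 lower (-0.25 and -0.29), and Col9a1, the partner chain of type IX, passed once, at day 3 (-0.14). The untreated mean of Col2a1 was -1.07, near the cutoff, and Col24a1 began below the cutoff in SCCVII. Their late 50 Gy means include the SCCVII and #8520 arrays with the raised low end, whose part was not tested.

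Genes that process, bind and break down collagen changed alongside. Of 24 tested processing and crosslinking genes (29 in the list) 4 were higher and 4 lower at 6 h after carbon ions, 9 and 2 at day 1 (median 0.12) and 6 and 11 at day 3 (median -0.14), beside medians of -0.01, 0.01 and -0.08 over all genes. For this and the lists that follow, the shares of all genes called higher and lower after carbon ions were 21% and 19.5% at 6 h, 25.5% and 16.6% at day 1 and 26.4% and 41.8% at day 3. After gamma rays they were 19.3% and 18.4%, 21.2% and 21.7%, and 23.1% and 30.9% at 30 Gy, and 22.8% and 26.9%, 23.1% and 45.1%, and 28.7% and 44.7% at 50 Gy. At day 1 the crosslinking oxidases Loxl3, Lox and Loxl2 were higher by 0.44, 0.43 (adjusted p = 2.3e-09) and 0.33, and Crtap, part of the prolyl 3-hydroxylase complex, by 0.26. At day 3 the hydroxylases Plod2, P4ha2 and P4ha1 fell by 0.55 (SE 0.059, adjusted p = 1.0e-11), 0.54 and 0.40, and Pcolce2, which speeds the trimming of procollagen, by 0.46. After gamma rays the processing counts were 5 and 5, 9 and 3, and 5 and 11 at 30 Gy, and 3 and 7, 10 and 8, and 8 and 10 at 50 Gy.
The 9 tested collagen-degrading genes (10 in the list) were called higher and lower in 4 and 1 at 6 h, 6 and 1 at day 1 (median 0.30) and 5 and 1 at day 3 (median 0.41). The neutrophil collagenase Mmp8 was higher by 2.45, 1.65 and 1.66, the lysosomal protease Ctsk by 0.46, 0.64 and 1.64, and the gelatinase Mmp2 by 0.39, 0.64 and 0.79. Macrophage genes had a median of 1.14 at day 3 with 9 of 11 higher and 1 lower, and their part was not tested. After gamma rays the degrading genes gave 2 and 2, 4 and 1, and 5 and 2 at 30 Gy, and 6 and 1, 5 and 1, and 7 and 1 at 50 Gy.
Of 7 tested receptors (10 in the list) 3 were higher and 3 lower at 6 h, 4 and 0 at day 1 and 3 and 1 at day 3. The collagen-binding integrin chains Itga10, Itga1 and Itga11 were higher by 0.54, 0.50 and 0.42 at day 1, and at day 3 Itga1 by 0.59 and the receptor kinase Ddr1 by 0.35, while Itgb1, the shared partner chain, fell by 0.25. Of 12 laminin, nidogen and perlecan genes (15), the other components of basement membranes, 2 and 1, 4 and 1, and 4 and 6 were called. Lama2, the laminin chain of muscle, was higher by 0.52 at day 1 and day 3, Nid1 and Nid2 by 0.40 and 0.31 at day 1, and Lamc1 and Lamb1 fell by 0.33 and 0.31 at day 3. Of 9 TGF-beta ligands, receptors and induced genes (13) 1 was higher and 3 lower at 6 h, 0 and 1 at day 1 and 2 and 2 at day 3.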

How the data were processed

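RNA from 4 transplanted mouse tumours was measured on 88 one-colour CodeLink arrays, 2 per group. The values used are the deposited intensity of each probe; per the labels RNA was extracted with ISOGEN and RNeasy and labelled with Cy5, while scanner software, background correction and scaling are not stated. Deposited intensities were taken as log2, with no further normalization, and values at or below 0 were treated as missing. Of 36227 probes 21615 had a single gene symbol, and each gene was read from its brightest probe. The dimmest 25% of genes by mean over all arrays (below a log2 value of -1.30) and genes with a value on under 80% of arrays were left out. A linear model with 44 group means was fitted over all arrays with limma 3.58.1 (in R 4.3.3), with empirical Bayes moderation, and p-values were adjusted by Benjamini-Hochberg over all genes at a threshold of 0.05. The small number of arrays limits the precision, with 44 residual and 7.30 prior degrees of freedom. The fit was tested on simulated data.

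Values on single arrays are given by rule for the brightest untreated member of each class, the 2 per class with the largest mean carbon-ion response at day 3 and Col1a1, Col1a2, Col3a1, Col4a1, Col4a2, Col6a1, Col7a1 and Col17a1. For differences between beams, doses or tumours the 3 largest called are named, and up to 4 genes of each other list. Array values of other members were added after their values were seen. The members and the gene lists were chosen with earlier results of these data known. Alternatives were quantile normalization, median centring, an added offset, other filters, the mean of all probes, robust moderation with a trend, the untreated tumours of both arms, subsets of tumours or arrays, each array left out, and the replicate number as a block.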

Additional observations from a re-analysis of the deposited data

Results flagged for a closer look

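With 2 arrays per group no single array could be tested against its group. What follows are the responses that differed between tumours, or between times, by a test of the difference itself. At 6 h after carbon ions 19 members responded differently in the 4 tumours, led by Col9a3 (moderated F 58.55), Col8a2 (38.48) and Col6a4 (20.38). At day 1 it was 26 members, led by Col9a3 (143.9), Col11a1 (99.64) and Col18a1 (49.08), and at day 3 27 members, led by Col14a1 (79.65), Col9a3 (70.44) and Col6a1 (59.13). Between day 3 and 6 h of carbon ions 19 members differed as means over the tumours. The share of all genes called was 45%, 58.3%, 61.9% and 62.6% in these 4 tests. Col9a3 was among the largest 3 at every time: it fell in NR-S1, where its untreated level was highest, and rose in SCCVII and #8520, and no cause was tested.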

How the results depend on the processing

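Single arrays were left out in turn, and the count of collagen genes called moved past 1.5 times in 1 comparison, the beam difference at 6 h, with 4 to 7 calls (7 with all arrays). The other counts that moved were these. With the dimmest 50% of genes left out, 21 members were tested, and 15 were called at day 3 after carbon ions, 12 at day 3 after 30 Gy and 12, 18 and 14 at the 3 times after 50 Gy of gamma rays, 16 and 16 in the dose difference at day 1 and day 3, 10 between day 3 and 6 h of carbon ions, 17 in the tumour difference at day 1 and 21 in the untreated levels, all from fewer genes tested. With the mean of all probes 4 beam differences were called at 6 h. In NR-S1 and NFSa only, 50 Gy gave 9, 7 and 17 calls at the 3 times and the dose difference 6 and 6 at the late times. Without #8520, chosen after seeing the data, 50 Gy gave 18 at day 1.
Signs turned for these means, which passed the test under at least 1 of the settings compared. Under quantile normalization after 50 Gy, day 1 gave Col3a1 -0.044, Col6a2 -0.12, Col17a1 0.11 and Col7a1 0.0035, and day 3 Col3a1 -0.0028, Col6a2 -0.052, Col11a1 -0.0089 and Col8a2 -0.32. With the mean of probes Col6a2 gave -0.13 and -0.0125 at day 1 and day 3 of carbon ions. Against the untreated tumours of both arms Col11a1 gave 0.16 and Col4a5 -0.16 at 6 h and Col4a5 -0.11 at day 1 of carbon ions, Col11a1 -0.17 and Col4a5 0.10 at 6 h and Col11a1 -0.047 at day 3 of 30 Gy gamma rays, and Col6a2 -0.023 at day 1 and Col11a1 -0.14 at day 3 of 50 Gy. In NR-S1 and NFSa only, 50 Gy gave Col6a2 -0.12 and Col17a1 -0.027 at 6 h, Col6a2 -0.19, Col4a2 -0.042 and Col7a1 0.10 at day 1, and Col6a2 -0.11, Col18a1 0.40, Col1a1 -0.17, Col11a1 -0.55 and Col8a2 -0.34 at day 3. Without #8520 carbon ions gave Col7a1 -0.24 and Col8a2 -0.061 at day 1 and Col18a1 -0.054 at day 3, 30 Gy of gamma rays Col6a2 -0.0095 and Col8a2 -0.14 at day 3, and 50 Gy Col6a2 -0.045 at day 1 and Col1a1 -0.21 and Col8a2 -0.27 at day 3. The cause was not tested.
An added offset of 0.02605 and robust moderation kept the direction and side of the threshold of all 152 results, and median centring of 143. Quantile normalization shifted the median of all genes by up to 0.10 (dose difference at day 1). In general replicate numbers did not pair the arrays (median r 0.015, from -0.193 to 0.390 over 68 pairs of groups, 16 over 0.1 and 29 under 0). In the gamma arm of NFSa, however, r was mostly positive, up to 0.233. With the replicate block carbon ions gave 16, 23 and 24 calls at the 3 times, and 107 of 116 results kept their side. The block could not be run for gamma rays at day 1 against untreated or for the beam difference at day 1, whose arrays are numbered differently. Groups of 2 arrays and values near the low end of the arrays limit all of these.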
